A study of Mus musculus with 3 samples.

Results

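Histone marks were mapped by ChIP-seq, the sequencing of DNA recovered with an antibody, in neurospheres. These are floating spheres of cells grown on low-attachment plates, here from the subventricular zone, a stem cell niche beside the lateral ventricles of the adult mouse brain. The cells came from wild-type male C57BL/6 mice whose age is not stated. The H3K4me3 and the H3K27me3 antibody gave 1 library each, and an input library with no antibody was not analysed here. The subject is the H3K4me3 regions on chromosomes 1 to 19 in which every base pair lay within H3K27me3 regions. There were 2060 of them, called members here, out of 21098 H3K4me3 regions on these chromosomes (9.76%, 95% Wilson interval 9.37 to 10.2%) and 21998 in the whole list. They were chosen by the coordinates of both lists, so their number and their cover are a description and were not tested.

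H3K4me3, the trimethylation of lysine 4 of histone H3, is found at the starts of active and poised genes and is laid down by the SET1 and MLL complexes. H3K27me3, the trimethylation of lysine 27, is laid down by Polycomb repressive complex 2 and can spread over long stretches around silenced developmental genes. Promoters with both marks are called bivalent. They were first described in embryonic stem cells, where many belong to developmental regulators that are silent but can be switched on or shut down later. In a bulk culture the marks can also come from different cells or from different alleles of a cell, and these libraries cannot tell those cases apart.

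The deposited lists hold a start, an end and a score for each region, on the mouse build mm9. No replicate stands behind any value. Intervals cover counting error only, and they are too narrow because neighbouring regions are not independent. Sequencing depth was not used here. No gene positions on mm9 were used either, so regions are named by coordinates, counted from 1, and the neural identity of the cultures was not checked against marker genes.

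A wholly covered H3K4me3 region was typically a short H3K4me3 stretch inside a much longer and strongly scored H3K27me3 region. In all 2060 cases a single H3K27me3 region did the covering, since regions of that list never touch each other. The wholly covered H3K4me3 regions were 1394.5 bp wide at the median (quartiles 1037.5 and 1861 bp), from 247 to 35652 bp. The H3K27me3 regions that covered them were 4169.5 bp wide at the median over the members, with an upper quartile of 7000 bp. The H3K4me3 region took up a median of 36.5% of the region that covered it, and in 684 cases (33.2%) it took up at least 50%. The H3K27me3 extended beyond the lower end by a median of 1086 bp and beyond the upper end by a median of 1014 bp, so the overhang was of similar size on either side.

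Being covered to the last base pair is a strict limit, and many regions fell just short of it. H3K27me3 regions touched 7113 of the autosomal H3K4me3 regions, and 29.0% of these were wholly covered. Another 539 regions were covered over more than 95% of their length without reaching the whole, 107 of them over more than 99%. In 72 regions outside the set at most 10 bp were left uncovered, with a median width of 1321 bp. Just inside the limit, 49 members had a covering region that ended no more than 10 bp beyond them, with a median width of 1158 bp. The H3K27me3 list is cut into closely spaced pieces, with 14127 gaps of 200 bp or less between neighbours on the autosomes. When those gaps were filled, 2407 regions were wholly covered.

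The H3K27me3 around these regions was far longer than H3K27me3 elsewhere. Merging H3K27me3 regions over gaps of up to 3000 bp gave 52317 domains on the autosomes, and 1707 of them held at least 1 wholly covered H3K4me3 region. These 1707 domains had a median length of 12.5 kb (12524 bp, interquartile range 5381 to 28370.5 bp). The 4363 domains that touched H3K4me3 but covered none of it wholly had a median of 2795 bp, and the 46247 domains without H3K4me3 had a median of 868 bp. Only 16.5% of the holding domains were a single H3K27me3 region, against 43.3% of the domains that touched H3K4me3 without covering it and 70.6% of those without H3K4me3. Part of this order follows from the rule, because a long domain has more room to cover a region wholly, and no test was made.

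**Figure D1:**
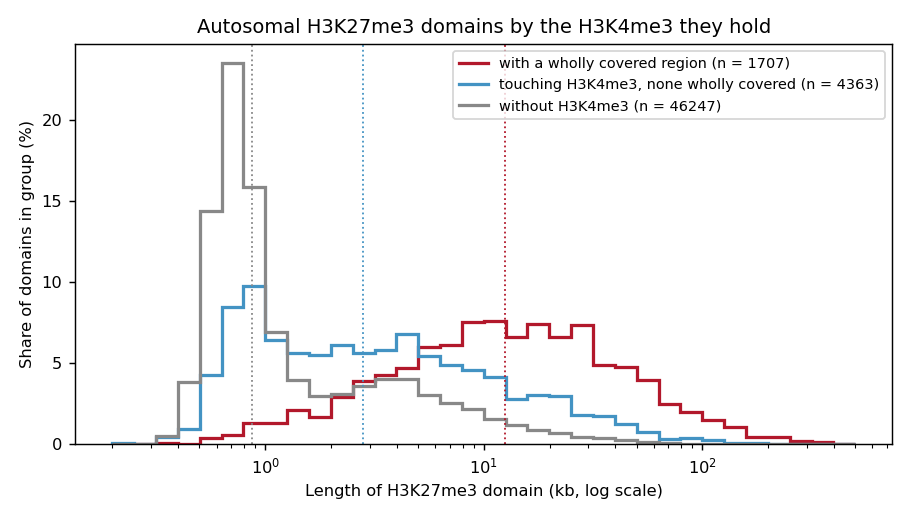
Length of autosomal H3K27me3 domains (x axis, kb, log scale) as the share of the domains of each group (y axis, percent), for domains with a wholly covered H3K4me3 region, domains touching H3K4me3 without covering any of it wholly, and domains without H3K4me3. Dotted lines mark the medians, at 12524, 2795 and 868 bp, and the domains with a wholly covered region lie farthest to the right.

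Seen from the regions, the median member sat in a domain of 15928.5 bp (interquartile range 6484 to 36380 bp), made of a median of 6 H3K27me3 regions. The shortest such domain spanned 359 bp and the longest 379988 bp. Domains from 20 to 50 kb held the most members, 553 of them (26.8%), and domains from 10 to 20 kb held 425 (20.6%). Domains under 2 kb held 127, made up of 39 in domains under 1 kb and 88 in domains from 1 to 2 kb. The share of domains that held a member increased with each length class. It was 0.140% of domains under 1 kb, 3.30% from 2 to 5 kb, 14.9% from 10 to 20 kb, 26.2% from 20 to 50 kb, 45.8% from 50 to 100 kb and 62.7% of the 102 domains of 100 kb or more (95% interval 53.1 to 71.5%). Counted per length of domain the classes were closer together above 1 kb. There were 0.895 members per 100 kb of domains from 1 to 2 kb, 1.01 from 2 to 5 kb, 1.24 from 10 to 20 kb, 1.20 from 20 to 50 kb, 1.01 from 50 to 100 kb and 0.784 in the longest class.

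Beyond the ends of the regions H3K27me3 thinned out slowly. Within 1 kb of the ends 76.5% of base pairs lay in H3K27me3 regions, which follows in part from the rule. At 5 to 10 kb the value was 38.0% around wholly covered regions, against 39.5% around regions with both ends covered and a gap inside, 19.2% around regions with H3K27me3 over 1 end and 5.56% around regions without H3K27me3. At 50 to 100 kb, well outside most domains, it was 19.0% around wholly covered regions and 9.30% around regions without H3K27me3. At that distance the value around regions with a gap inside was 23.6%. The wholly covered regions and the regions covered at both ends thus lay in surroundings with similar amounts of H3K27me3 at 1 to 10 kb, while beyond 10 kb the regions with a gap inside had the higher values.

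Inside their domains the regions were spread nearly evenly. Position was taken as the distance from the lower end of the domain divided by the room left for the region, and this range was cut into 5 equal parts, each of which would hold 20% of evenly placed regions. From the lowest to the highest part the shares were 19.2%, 19.3%, 20.3%, 20.3% and 20.9% of the 2060 regions. In domains of 20 kb or more they ran from 18.4% to 21.9%, in domains of 5 to 20 kb from 18.6% to 22.3%, and in domains under 5 kb from 18.25% to 22.0%. In domains of 10 kb or more the 1309 wholly covered regions had from 18.1% to 21.3% in each part. In domains of that length the 617 regions with H3K27me3 over 1 end had from 18.6% to 21.4%, and the 398 with a gap inside from 16.8% to 22.4%. The 69 regions with H3K27me3 confined inside were less even, with 24.6% in the lowest and 27.5% in the highest part and 11.6% in the fourth.

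**Figure D2:**
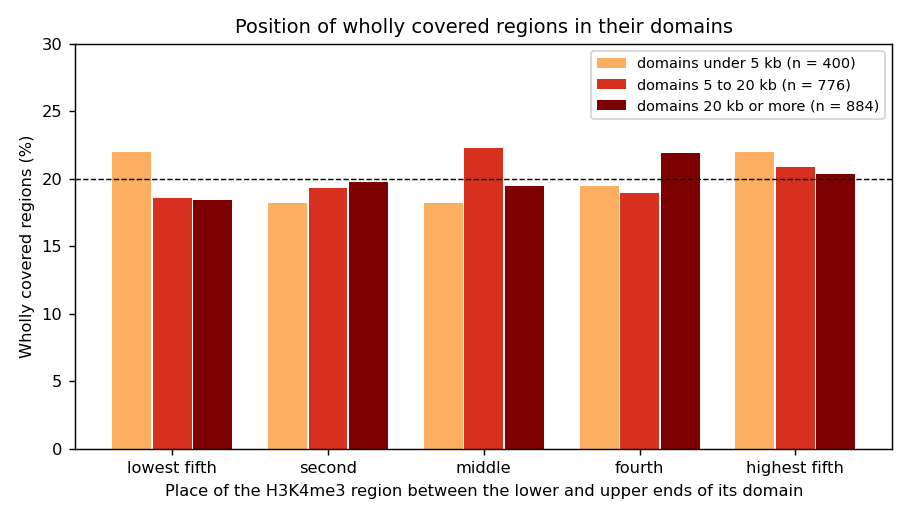
Share of wholly covered H3K4me3 regions (y axis, percent) in each of 5 equal parts of their H3K27me3 domain, from its lower to its upper end (x axis), for 3 classes of domain length. The dashed line marks 20%, and the bars run from 18.25% to 22.3%.

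In base pairs, the median distance from a member to the nearer end of its domain was 2978 bp (interquartile range 668.5 to 8332 bp). It scaled with the length of the domain. The median was 327 bp in domains from 2 to 5 kb, 3270 bp from 10 to 20 kb, 7330 bp from 20 to 50 kb and 32704 bp in domains of 100 kb or more. The region deepest inside a domain lay 122.9 kb (122920 bp) from the nearer end. It was the region at chr8:123495517-123496707, 1191 bp wide with a score of 253.8, in the longest domain of all. Within the single H3K27me3 region that covered each member, 22.0% lay in the middle of 5 parts (95% interval 20.3 to 23.9%), 18.3% in the lowest and 18.7% in the highest, so the middle part held slightly more than the 20% of an even spread.

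Most domains held 1 wholly covered region. Of the 1707 domains, 1459 (85.5%) held 1, 180 held 2, 48 held 3 and 15 held 4. The other 5 held 5, 6, 7, 8 and 11. The 248 domains with 2 or more held 601 members (29.2% of all). Consecutive members of a domain started a median of 7327 bp apart (interquartile range 3193 to 14821 bp), and 120 single H3K27me3 regions covered 2 or more members each. Few other H3K4me3 regions lay wholly within the span of these domains. Of the 2395 H3K4me3 regions within the span of the 1707 domains, 322 were partly covered and 13 had no H3K27me3. In 1300 domains (76.2%) the member was the only such region. These counts follow in part from the rule, since regions crossing a domain end were left out. A region without H3K27me3 could lie only in an inner gap of up to 3000 bp.

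Members also had members for neighbours. Another H3K4me3 region lay within 10 kb of 781 members (37.9%), against 31.6% of partly covered regions and 35.3% of regions without H3K27me3. In 373 of the 781 cases (47.8%) the nearest such neighbour was itself wholly covered, and in 161 (20.6%) it had no H3K27me3. Of the 1597 partly covered regions with a neighbour within 10 kb, the nearest was wholly covered in 15.8%. A neighbour inside the same H3K27me3 domain is more likely to be covered by the way the members are chosen, so these shares are not independent of the rule.

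The domains with the most members were a pair on chromosome 6 in which most H3K4me3 regions at the top score followed each other at similar steps. The first, chr6:47686944-47728535 (41.6 kb), held 11 wholly covered regions and 3 partly covered ones. The other, chr6:47596457-47637178 (40.7 kb), held 8 and 3. They lay 49.8 kb apart, with 0 H3K4me3 and 0 H3K27me3 regions between them. In the first domain the 8 regions at the top score, 2501 to 4145 bp wide, started 4152 to 5613 bp apart (median 4345 bp over 7 steps). In the other the 9 regions at the top score, 2961 to 4718 bp wide, started 4209 to 5735 bp apart (median 4303.5 bp over 8 steps). Steps between 4000 and 4500 bp made up 4 of the 7 in the first domain and 7 of the 8 in the other. Of these top-scoring regions 6 in each domain were members. With all H3K4me3 regions counted the steps were irregular, from 748 to 4345 bp in the first domain and from 945 to 5735 bp in the other. H3K27me3 was nearly unbroken through both, covering 96.5% of the first domain in 5 regions and 99.7% of the other in 4. A single H3K27me3 region of 14716 bp covered 6 of the members. Whether sequence repeats at this step was not analysed here.

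The next 3 domains by number of members differed in make-up. A 48.4 kb domain at chr8:19693914-19742304 held 7 wholly covered and 8 partly covered regions. H3K27me3 covered 69.6% of it in 15 pieces, and no H3K4me3 region wholly covered there was at the top score. The members' scores ran from 61.89 to 384.74. A 108.4 kb domain at chr6:52096340-52204764 held 6 wholly covered regions and 1 partly covered over 98.1% of its length. H3K27me3 covered 93.7% of that domain. Its members ran from a 2652 bp region at the top score to regions of 927 and 1013 bp with scores of 63.53 and 68.85, and 4 of them lay under 1 H3K27me3 region of 21123 bp. An 87.9 kb domain at chr1:74920691-75008546 held 5 members of 876 to 2150 bp, with scores from 78.73 to 763.82.

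**Figure D3:**
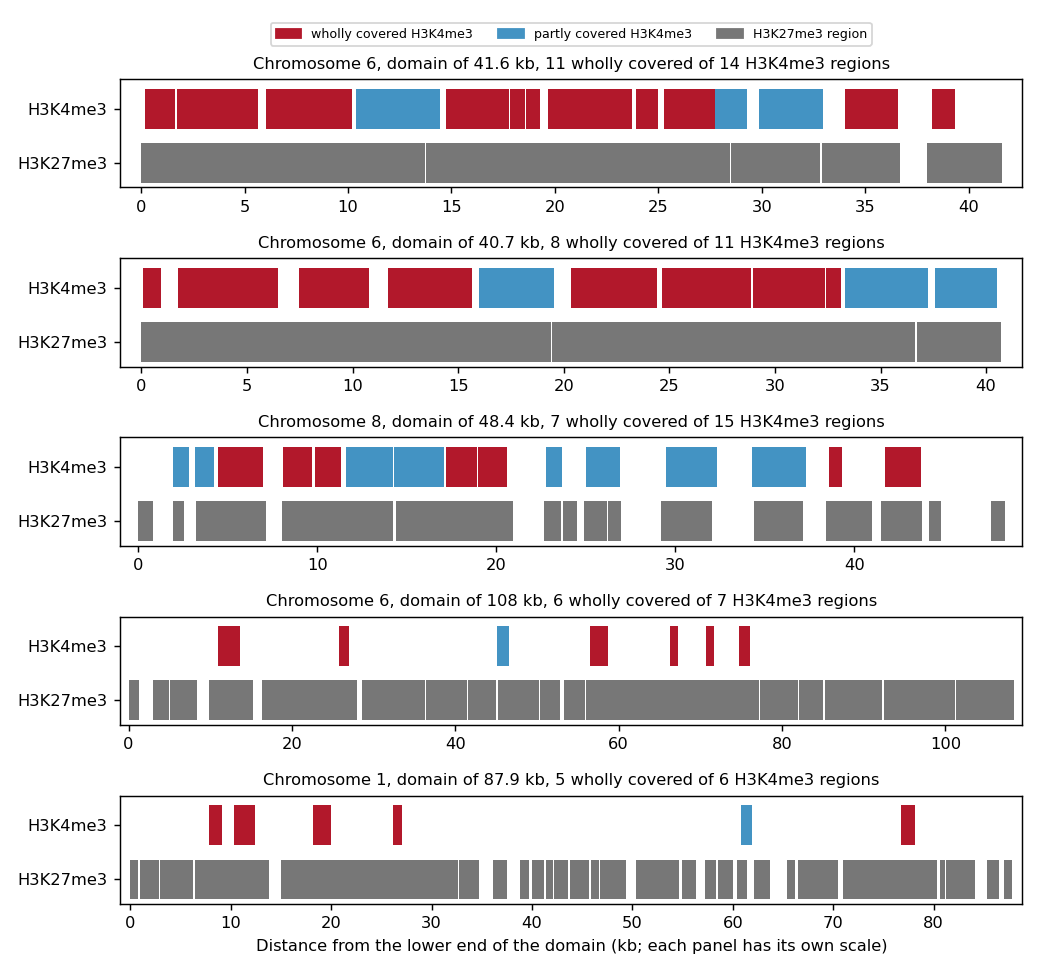
The 5 domains with the most wholly covered H3K4me3 regions, each drawn along the distance from its lower end (x axis, kb, a scale of its own in each panel). Upper bars are H3K4me3 regions, red where wholly covered and blue where partly covered, and lower grey bars are H3K27me3 regions. The chromosome 6 domains of 41.6 and 40.7 kb are filled with H3K4me3 regions, while in the 108 and 87.9 kb domains they are few and scattered.

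The 5 longest domains that held members had from 1 to 4 of them, and their widths and scores varied widely. The longest, chr8:123239640-123619627 (380.0 kb, 115 H3K27me3 regions), held 3 among its 5 H3K4me3 regions. They were 1191, 982 and 2859 bp wide, with scores of 253.8, 81.68 and 2834.36. The domain at chr6:99807079-100178281 (371.2 kb) held a pair, 1211 and 845 bp wide with scores of 154.7 and 57.8, both under 1 H3K27me3 region of 23072 bp. The domains at chr4:153778990-154093548 (314.6 kb) and chr2:31152311-31428288 (276.0 kb) held 1 each, with scores of 66.14 and 551.46. In the domain at chr15:102716138-102978400 (262.3 kb) all 4 H3K4me3 regions were wholly covered, with scores of 131.84, 74.08, 96.76 and 793.23. The last of these ended 69 bp before the upper end of the domain. None of the 11 members in these 5 domains was at the top score.

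Wholly covered regions were seldom at the top of the H3K4me3 scores. Scores pile up at 3100, and 3100 or more is called the top score, reached by 53.0% of autosomal H3K4me3 regions. Of the wholly covered regions 294 were at the top score (14.3%, 95% interval 12.8 to 15.8%). This compares with 39.6% of regions with H3K27me3 over 1 end, 47.9% of those with a gap inside, 61.1% of those with H3K27me3 confined inside and 60.7% of those without H3K27me3. Of the 539 regions covered over more than 95% but not wholly, 35.3% were at the top score, with a median width of 1742 bp. Among the 107 covered over more than 99% it was 36.4%, with 1694 bp. The share was 16.7% of the 72 regions with at most 10 bp uncovered. It was 26.5% of the 49 members whose covering region ended within 10 bp of them. The median score was 483.0 for wholly covered regions, 2667 for all partly covered ones and 3100 for those without H3K27me3. Below the top score the order was not the same, with a median of 331.9 in wholly covered regions, 432.4 in partly covered ones and 183.4 in those without H3K27me3.

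Narrow regions seldom reach the top score and are more easily covered, so the shares were also set side by side within width classes. Under 1000 bp the top score was reached by 1 of 466 wholly covered regions, 1 of 766 partly covered ones and 3 of 2483 without H3K27me3. From 1000 to under 1500 bp it was reached by 0.282% of wholly covered regions (95% interval 0.0773 to 1.02%), 3.54% of partly covered ones (2.58 to 4.84%) and 4.73% of those without H3K27me3 (3.90 to 5.71%). From 1500 to under 2000 bp it was reached by 11.8% of wholly covered regions (95% interval 9.25 to 15.0%), 34.1% of partly covered ones (31.1 to 37.2%) and 54.2% of those without H3K27me3 (51.7 to 56.6%). From 2000 to under 3000 bp the shares were 54.1% (48.7 to 59.5%), 81.9% (79.7 to 83.8%) and 94.3% (93.5 to 94.9%). At 3000 bp or more they were 84.8% of only 66 wholly covered regions (74.3 to 91.6%), 97.0% (95.7 to 97.9%) and 99.2% (98.9 to 99.4%). The lower share of wholly covered regions at the top score was thus present among regions of like width from 1000 bp upward. The intervals count regions of 1 library per mark, so the space between them is not a test. The median score did not follow this order throughout. From 1000 to under 1500 bp it was 295.0 in wholly covered regions, 407.4 in partly covered ones and 268.8 in those without H3K27me3, and under 1000 bp it was 84.7, 114 and 89.6 in the same order. No test was made of it, and the width still differs somewhat within a class.

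**Figure D4:**
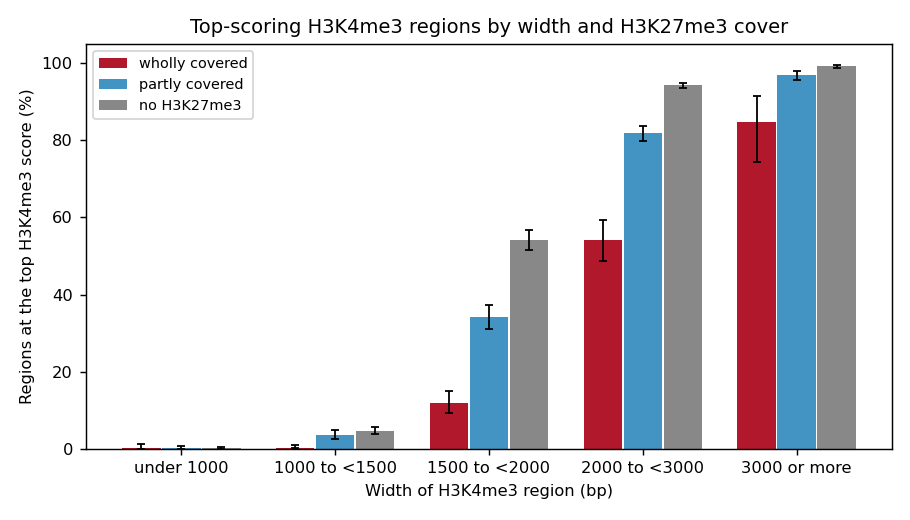
Share of H3K4me3 regions at the top score (y axis, percent) by width class (x axis, bp) for wholly covered, partly covered and uncovered regions, with 95% Wilson intervals. At 1500 to under 2000 bp the bars stand at 11.8%, 34.1% and 54.2%, and from 1000 bp upward the wholly covered regions have the lowest bar.

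The covering H3K27me3 regions were at the opposite end of their own list. Of the 2060 members 1213 (58.9%, 95% interval 56.7 to 61.0%) lay under an H3K27me3 region at the top score, which 2.57% of autosomal H3K27me3 regions reached. The members had 1917 different covering regions, with a median score of 3100 and a median width of 3912 bp. The other 113692 H3K27me3 regions had a median score of 110.4 and a median width of 872 bp. The rule favours wide covering regions, so this contrast was not tested. In domains made of 5 or more H3K27me3 regions, of which 884 held a member, 60.2% of the 1070 covering regions were the widest of their domain. In 81.0% no region of the domain scored higher, and in 47.2% the covering region alone had the highest score. The median number of H3K27me3 regions in those domains was 10.

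Both marks were at the top score in 204 of the 2060 members (9.90%). In 1009 (49.0%) only the H3K27me3 was, in 90 only the H3K4me3, and in 757 (36.7%) neither. The most frequent combination was H3K4me3 below the top score under H3K27me3 at the top score. With 14.3% of members and 58.9% of their covering regions at the top score, it does not show that the scores opposed each other. Of the 294 members at the top score, 204 lay under H3K27me3 at the top score, a higher share than the 58.9% of all members. Width differs between these groups, since the median was 2343 bp for the 294 and 1394.5 bp for all members. By the rule a covering region must be at least as wide as its member. How far width enters into the higher share was not tested. A link between the scores was not tested.

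The H3K4me3 score of members varied with the length of the domain around them, without a steady order. Its median was 170.5 in domains under 2 kb, 746.3 from 2 to 5 kb, 632.4 from 5 to 10 kb, 662.6 from 10 to 20 kb, 423.9 from 20 to 50 kb and 324.8 in domains of 50 kb or more. The share at the top score was 0 of 127 in domains under 2 kb, which allows a share of up to 2.36%, and then 19.0%, 17.9%, 15.5%, 14.1% and 10.6% in the same order. Within the last class it was 9.05% from 50 to 100 kb and 13.2% at 100 kb or more. Partly covered regions, most of them in other domains of these lengths, had higher medians over all widths, 1181.5 from 2 to 5 kb and 1067 at 50 kb or more. From 1000 to under 2000 bp wide the medians were closer, but members had the lower median in every class from 2 kb up. From 2 to 5 kb the median was 698.1 in members and 785.6 in partly covered regions. From 5 to 10 kb it was 590.7 against 764.2, and from 10 to 20 kb 607.9 against 674.7. The gap was widest from 20 to 50 kb, at 417.7 in 318 members and 792.5 in 202 partly covered regions. At 50 kb or more the median was 435.3 in members and 488.3 in partly covered regions. Under 2 kb it was 302.2 in 36 members and 280.7 in only 5 partly covered regions. At these widths the share at the top score was lower in members in each class from 2 to 50 kb. From 20 to 50 kb it was 2.52% against 15.8%. At 50 kb or more it was 3.16% of 190 members and 3.06% of 98 partly covered regions. Over all widths, the interquartile ranges of members and partly covered regions overlapped within every length class. Between length classes they did not always overlap. The 15 partly covered regions in domains under 2 kb had an upper quartile of 282.1. This lay below the lower quartiles of partly covered regions from 10 to 20 kb (283.6) and from 20 to 50 kb (309.0). No test was made.

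**Figure D5:**
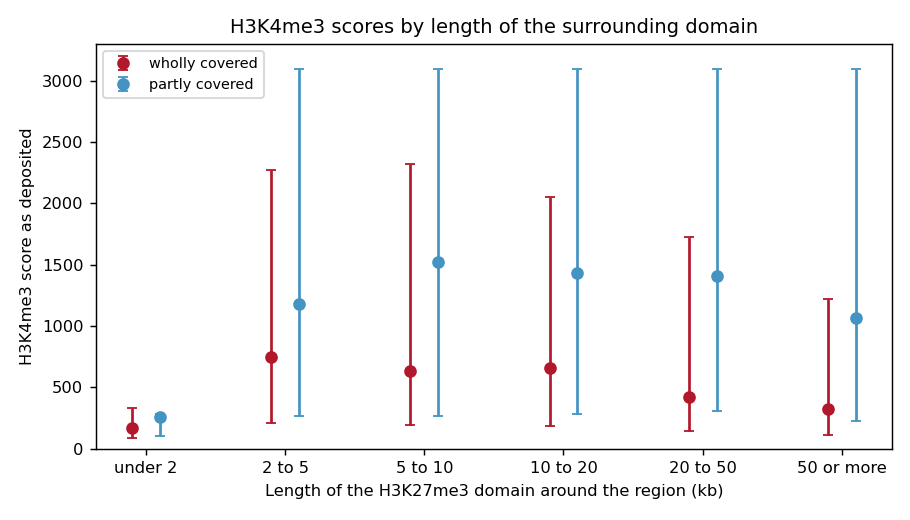
H3K4me3 score as deposited (y axis) by the length of the surrounding H3K27me3 domain (x axis, kb) for wholly covered and partly covered regions that lie within the span of a domain. Points are medians and bars the interquartile range, and the medians of the wholly covered regions are 746.3 at 2 to 5 kb and 324.8 at 50 kb or more.

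Wide members were rare, and the widest formed a single block. Narrow regions are more easily covered, so the rarity of wide members follows in part from the rule. Of all 21098 autosomal H3K4me3 regions 589 were wider than 5000 bp, but only 6 of the 2060 members were. The widest of them, 35652, 31962 and 19999 bp, lay side by side at chr8:126113019-126148670, chr8:126080893-126112854 and chr8:126060789-126080787. All were at the top score, and all lay under the same H3K27me3 region, chr8:126060716-126149888, which was 89173 bp wide and also at the top score. The lower end of this block agreed in both lists within 73 bp, and at the upper end H3K27me3 ran 1218 bp farther. The next widest were a 5598 bp region at chr11:3080884-3086481 with a score of 1946.24, and a 5448 bp region at chr1:172999619-173005066 at the top score.

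In some cases the regions called for the marks were almost the same region. Both ends of an H3K4me3 region lay within 100 bp of the ends of an H3K27me3 region in 45 members (2.18%). Among all autosomal H3K4me3 regions there were 274 such pairs, or 1.30%, but 13985 of those regions had no H3K27me3 and could not be paired. The other 229 pairs were among the 5053 partly covered regions, a higher share than in members. In these 229 the H3K27me3 region fell short at an end. The 45 same-ended members were narrower than the other 2015, with a median width of 911 against 1398 bp. They scored lower in both lists. Their median H3K4me3 score was 209.2, against 492.1 for the other members, and their median H3K27me3 score was 274.8, against 3100. Their domains had a median length of 2576 bp, against 16244 bp, and 20 of the 45 (44.4%) were a domain of a single H3K27me3 region, against 13.5% of the other members. Since a narrow covering region leaves less room for the ends to differ, these contrasts follow in part from how the pairs were chosen.

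The same-ended members lay on 16 chromosomes, with 7 on chromosome 8 and 5 each on chromosomes 2 and 11. The widest was chr14:68740494-68744130, 3637 bp wide, at the top H3K4me3 score and with an H3K27me3 score of 2246.57. Its ends were 28 and 11 bp inside those of the H3K27me3 region. Next came chr13:74665487-74668678, 3192 bp wide and at the top score in both lists, with ends 43 and 5 bp inside. The third, chr7:38972629-38975362 (2734 bp), shared its 28.5 kb domain (28497 bp) with the same-ended member chr7:38978910-38980662 (1753 bp). The fourth and the fifth were chr9:54828597-54830409 (1813 bp, H3K4me3 score 2993.3) and chr4:91066064-91067863 (1800 bp, H3K4me3 score 712.69). At the other extreme, 31 of the 45 had an H3K4me3 score under 500 and 26 were under 1000 bp wide.

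On chromosome 8 same-ended members included 2 sets of similar make-up. In the first, chr8:19762578-19764164 was followed by chr8:19765469-19766351. In the second, chr8:19918028-19918892 was followed by chr8:19920159-19921745. The larger region was 1587 bp wide in both sets, to the base pair, and its starts lay 157.6 kb apart, with H3K4me3 scores of 209.18 and 215.1. The smaller was 883 bp wide in the first set and 865 bp in the second, with scores of 99.13 and 69.98. The order of the larger and the smaller region along the chromosome was reversed between the sets. Only 1 other pair of wholly covered regions within 1000 kb of each other had equal widths, 1187 bp at chr11:5801545-5802731 and chr11:6557895-6559081, where the scores were 152.46 and 756.04. These sets lay near the 48.4 kb domain with 7 members described above. Whether they are copies of the same sequence was not analysed here.

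Wholly covered regions were found on every autosome. They made up 9.54% ± 1.28 of the H3K4me3 regions of a chromosome (mean and SD over 19 autosomes), from 6.78% on chromosome 18 (95% interval 5.15 to 8.87%) to 11.3% on chromosome 2 (9.89 to 12.9%). As a share of the regions touched by H3K27me3 they ran from 21.8% on chromosome 18 to 34.1% on chromosome 2. Chromosome 18 also had the shortest surrounding domains, with a median of 8593.5 bp, and chromosome 2 the longest, with 23513 bp. H3K27me3 regions covered 3.76% of the span of chromosome 18 and 7.71% of that of chromosome 2. Chromosome 11 had the highest coverage, at 10.9%, and 10.96% of its H3K4me3 regions were wholly covered. The lowest coverage was on chromosome 3, at 2.96%, where 7.94% of H3K4me3 regions were wholly covered, more than on chromosome 18.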

How the data were processed

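ChIP-seq regions of H3K4me3 and H3K27me3 from 1 library each were used, and the input was not analysed here. The submitters' processing notes name Bowtie 1.1.2 and the build mm9. Region names in the deposited files are those of MACS. Its version, threshold and control, and any read filter, are not given in the sources consulted. The score deposited by the authors has no stated scale and was compared only within a list. Starts, counted from 0 in the deposited files, are printed counted from 1.

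An H3K4me3 region was wholly covered when all its base pairs lay in H3K27me3 regions. Domains joined H3K27me3 regions over gaps of up to 3000 bp. Same-ended means both ends within 100 bp. Shares have 95% Wilson intervals. No test was run, since there is 1 library per mark and the members were chosen from the same lists. The members, comparisons and lists were chosen with earlier results of these data known. Regions are named by rule: the 5 longest domains with a member, the 5 domains with most members, the 5 widest members, the 5 widest same-ended pairs and the member nearest the centre of the longest domain. The chromosome 8 sets, the further same-ended member on chromosome 7, the chromosome 11 pair of equal width and the extreme chromosomes were chosen after their values were seen. Gene tables of GRCm38.p6 were not joined to mm9 positions, so no gene or sequence is given. Cover was checked on 1345 simulated regions, with 0 differences from a base-by-base count, and against bedtools 2.31.1, with 0 differences. The software was Python 3.11.15 with pandas 2.3.3, NumPy 2.4.6, matplotlib 3.10.9 and SciPy 1.17.1.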

Additional observations from a re-analysis of the deposited data

Results flagged for a closer look

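Wholly covered H3K4me3 regions were also found outside the autosomes, in data that the comparisons above leave out. On the X chromosome 34 of 701 H3K4me3 regions were wholly covered (4.85%, 95% Wilson interval 3.49 to 6.70%), against 9.76% on the autosomes. Of the 143 regions of X touched by H3K27me3 they were 23.8%, against 29.0% on the autosomes. Their median width was 1362 bp, against 1394.5 bp on the autosomes. Of the 34, 3 were same-ended (8.82%), against 2.18% on the autosomes. The mice were male, and read depth on X was not compared with that on the autosomes. On unplaced and unlocalized contigs 7 of 191 were wholly covered (3.66%, 1.79 to 7.37%). These differences were not tested.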

How the results depend on the processing

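Of 69 values recomputed under alternatives, 43 stayed within the interval of the reported value or, for counts, within 1.5 times of it, and 26 moved further. Requiring 95% cover gave 2599 regions, a median width of 1444 bp, 18.6% at the top score, a median domain of 14007 bp, 52.7% under a top-scoring H3K27me3 region and a mean of 12.05% per autosome. Filling H3K27me3 gaps of up to 200 bp gave a median width of 1444 bp, 17.2% at the top score and 11.1% per autosome. The upper 50% of H3K4me3 regions by score, which are those at the top score, held 294 wholly covered regions with a median width of 2343 bp and a median domain of 13438.5 bp. The upper 50% of H3K27me3 regions gave a median domain of 11457 bp. Merging gaps of 0, 1000, 5000 and 10000 bp gave median domains of 4169.5, 7776, 24616 and 45038 bp, and 6.26%, 9.72%, 16.5% and 21.6% of holding domains with 2 or more members, as wider merging must. The share in the middle part of the domain was 22.6% with 1000 bp and 18.9% with 10000 bp. End tolerances of 10, 50, 200 and 500 bp gave 0, 14, 121 and 354 same-ended members, and 274 regions were same-ended without the condition of whole cover. Beyond what these constructions fix, the cause was not tested. Filling gaps, joining H3K4me3 regions over 200 bp, leaving out the 5 domains of 5 or more members, and the wider use of 3 alternatives were added after the data were seen. No paired analysis was possible because there is a single library for each antibody. Without depth, an uncovered stretch cannot be set against a detection limit.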
